A study of Mus musculus with 4 samples.

Results

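Cldn5, Pecam1, Ly6c1, Slco1a4, Itm2a, Bsg, Cdh5, Tek, Tie1 and Mfsd2a are genes of the endothelial cells that line brain blood vessels and of the barrier those cells form. They were taken by their symbols, 10 of the 32285 gene rows of a spatial count table from mouse olfactory bulb, and all 10 were found under the same symbol in the reference gene names. Their identifiers are ENSMUSG00000041378 for Cldn5, ENSMUSG00000020717 for Pecam1, ENSMUSG00000079018 for Ly6c1, ENSMUSG00000030237 for Slco1a4, ENSMUSG00000031239 for Itm2a, ENSMUSG00000023175 for Bsg, ENSMUSG00000031871 for Cdh5, ENSMUSG00000006386 for Tek, ENSMUSG00000033191 for Tie1 and ENSMUSG00000028655 for Mfsd2a.

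The study set 1 control mouse beside 1 mutant mouse, each with 2 Visium capture areas carrying 10 µm coronal sections of fresh-frozen bulb. The control areas held 2 sections and 1 section, and each mutant area held 2. The mutant carried a soluble VEGFR1 transgene, which traps VEGF, under tetracycline control with a camk2a-tTA driver; the block was at E13.5 and the labels give an age of 5 months. For the control the labels state the genotype only as control and give the same protocol text, so the alleles it carried are not known from them. A Visium spot collects RNA from a small area that can span several cells, and a count is of unique molecular identifiers (UMIs), each standing for a captured RNA molecule.

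The blood-brain barrier is made by endothelial cells that seal their contacts with claudin-5 tight junctions, move few vesicles across the cell and carry nutrients by dedicated transporters. VEGF is the main growth signal of these cells, while the angiopoietin receptors encoded by Tek and Tie1 steady formed vessels. The bulb receives its vessels from the surrounding meninges and also adjoins the nasal lining, whose vessels do not form such a barrier.

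Promoter sequence was shown for Cldn5, Ly6c1 and Itm2a, 3 genes picked by their order across the libraries, which is described next. A link of the sequence to that order was not tested. The 250 bases before the start site come from RefSeq on GRCm38.p6, which is not the build named in the submitters' processing notes, so the positions belong to that build alone. Capitals mark GGAA or its reverse TTCC, the core letters bound by ETS factors such as Erg and Fli1, which are endothelial transcription factors. The entries are Cldn5 at chr16:18776597-18776846 on the plus strand, the first listed start of Ly6c1 at chr15:75048838-75049087 on the minus strand and Itm2a at chrX:107403361-107403610 on the minus strand, each written 5′ to 3′ in the gene's direction.
Cldn5: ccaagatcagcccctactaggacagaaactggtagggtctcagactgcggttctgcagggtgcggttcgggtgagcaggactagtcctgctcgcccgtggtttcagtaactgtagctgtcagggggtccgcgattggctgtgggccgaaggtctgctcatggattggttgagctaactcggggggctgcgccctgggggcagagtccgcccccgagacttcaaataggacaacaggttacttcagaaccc
Ly6c1: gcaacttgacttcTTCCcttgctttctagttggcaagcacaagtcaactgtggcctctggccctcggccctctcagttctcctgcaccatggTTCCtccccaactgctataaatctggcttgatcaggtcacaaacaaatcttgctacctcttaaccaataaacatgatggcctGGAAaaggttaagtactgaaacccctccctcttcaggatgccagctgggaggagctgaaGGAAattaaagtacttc
Itm2a: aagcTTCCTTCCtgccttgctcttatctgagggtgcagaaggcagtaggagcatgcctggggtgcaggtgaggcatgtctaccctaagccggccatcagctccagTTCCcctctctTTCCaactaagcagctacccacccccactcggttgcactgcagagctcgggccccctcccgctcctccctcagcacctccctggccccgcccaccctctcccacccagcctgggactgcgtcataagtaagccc
The Cldn5 window held 0 matches, and the Ly6c1 and Itm2a windows held 4 each, with both strands searched and overlapping matches counted. Of 32851 promoter windows of this length, 93.4% held at least 1 match and the median was 3. Of the 10 genes 7 were matched, with 8 start sites in all. A second Ly6c1 start had 6 matches, Tie1 7, Slco1a4 4, and Tek and Mfsd2a 2 each. A match of 4 letters is a description of the window and says nothing of factor binding. No entry was matched for Pecam1, Bsg or Cdh5.

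The 4 libraries carried the numbers 1 to 4 at the end of each spot barcode, and these numbers match no sample label. Each library was therefore reported by number, no library was put with the control or the mutant mouse, and no test was made. After spots under 500 UMIs were set aside, libraries 1 to 4 had 1662, 715, 1296 and 943 spots, with a median of 7186 to 9829 UMIs. Of 2796 distinct spot barcodes, 1460 occurred in more than 1 library; Visium slides draw their barcodes from a common set. No 2 libraries had counts within sampling noise of each other, the smallest chi-square per degree of freedom being 2.71 for libraries 1 and 2. Clustering of spots without any gene of the lists used here gave 10 regions. A region carries the name of the gene with the highest fold over the other spots, not of a cell type. Libraries 1 and 2 held mostly Adamts19, Klhl30, Gal and Bpifb9b spots, and libraries 3 and 4 mostly Nrp2, Trbc2, Adamts19, Ces1a, Fmod and Car9 spots. Only the Adamts19 and Bpifb9b regions had at least 30 spots in every library.

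Levels were expressed as counts per 1000000 UMIs of the library (CPM), with exact 95% Poisson intervals for a level and exact binomial intervals for a ratio, both of which cover counting error only. Since spots mix cells, fewer endothelial cells and less RNA per endothelial cell cannot be told apart. None of the 10 genes differed by more than 2-fold between its highest and lowest library, against 19.6% of all genes with at least 20 UMIs and 10.4% of genes in the same range of abundance. For 7 of the 10 the interval of that ratio lay above 1, against 65.1% of all genes. The median ratio was 1.46 over the 10 genes, 1.34 over all 15147 genes and 1.27 over the 11646 genes of similar abundance. The order of the libraries was not shared: Ly6c1, Itm2a and Pecam1 were higher in libraries 1 and 2, Slco1a4 in library 1, and Cldn5 and Bsg were higher in libraries 3 and 4.

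Among the junction genes, Cldn5, the main tight junction strand protein of brain endothelium, had 73.4 (68.8 to 78.1), 63.2 (56.5 to 70.4), 90.8 (85.6 to 96.2) and 92.2 (86.2 to 98.5) CPM in libraries 1 to 4. Libraries 3 and 4 were thus above libraries 1 and 2 with no overlap of the intervals, and could not be told from each other. The highest was 1.46 times the lowest (1.28 to 1.66). Cdh5, the VE-cadherin of endothelial adherens junctions, had 9.85 (8.23 to 11.7), 13.6 (10.6 to 17.1), 15.9 (13.7 to 18.2) and 12.7 (10.5 to 15.2) CPM. Library 1 was the low one, and no neighbouring pair in that order differed beyond counting error, although library 3 was 1.61 times library 1 (1.29 to 2.03). Pecam1, a homophilic adhesion molecule at endothelial contacts that is also present on platelets and leukocytes, had 13.3, 14.5, 10.1 and 7.66 CPM in libraries 1 to 4. Here the order was opposite to that of Cldn5, with library 2 at 1.90 times library 4 (1.36 to 2.66).

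Among the transport genes, Slco1a4, an organic anion transporter of the barrier, had 39.98 CPM in library 1, 31.0 in library 2, 26.2 in library 3 and 27.4 in library 4. Library 1 stood above the other libraries, which could not be told apart in their order, and the ratio of highest to lowest was 1.52 (1.33 to 1.75). Without library 1 that ratio was 1.18. Mfsd2a, a lysolipid transporter that also keeps vesicle traffic low, was the most even of the 10 genes, with 30.8, 31.0, 28.5 and 32.3 CPM and a ratio of 1.13 (0.971 to 1.32). Bsg, the basigin chaperone that brings monocarboxylate transporters to the cell surface in many cell types, had 794, 708, 983 and 892 CPM. All 4 libraries differed from each other beyond counting error for Bsg, library 3 being 1.39 times library 2 (1.34 to 1.44).

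The receptor tyrosine kinases of the angiopoietin pathway were the least counted genes. Tek, which encodes the angiopoietin receptor Tie2, had 8.64, 8.997, 6.14 and 8.18 CPM, from 115, 47, 77 and 78 UMIs. Tie1, its partner receptor, had 6.01, 5.17, 6.30 and 5.14 CPM, from 80, 27, 79 and 49 UMIs. Neither gene showed a difference between libraries beyond counting error, with ratios of 1.46 (0.997 to 2.13) for Tek and 1.23 (0.848 to 1.79) for Tie1. At this depth a Tek difference of up to 2.13-fold and a Tie1 difference of up to 1.79-fold lay within the intervals.

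Among the surface markers, Ly6c1, a lipid-anchored protein of brain endothelium and of some leukocytes, had 127 (121 to 134), 117 (108 to 126), 76.2 (71.4 to 81.2) and 75.4 (70.0 to 81.1) CPM in libraries 1 to 4. The libraries fell into a high and a low pair with a gap between them, and the ratio of highest to lowest was 1.69 (1.55 to 1.85). Itm2a, a small transmembrane protein with high levels in brain endothelium, had 89.97, 94.0, 72.4 and 66.2 CPM, the same pairing as Ly6c1, with a ratio of 1.42 (1.26 to 1.60). Relatives with near-identical sequence were rare, with 26 UMIs of Ly6c2, 41 of Slco1a5 and 2 of Slco1a6 over all libraries. The sources used here do not state how reads shared between such relatives were counted, so the Ly6c1 and Slco1a4 values are uncertain to that extent.

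**Figure D1:**
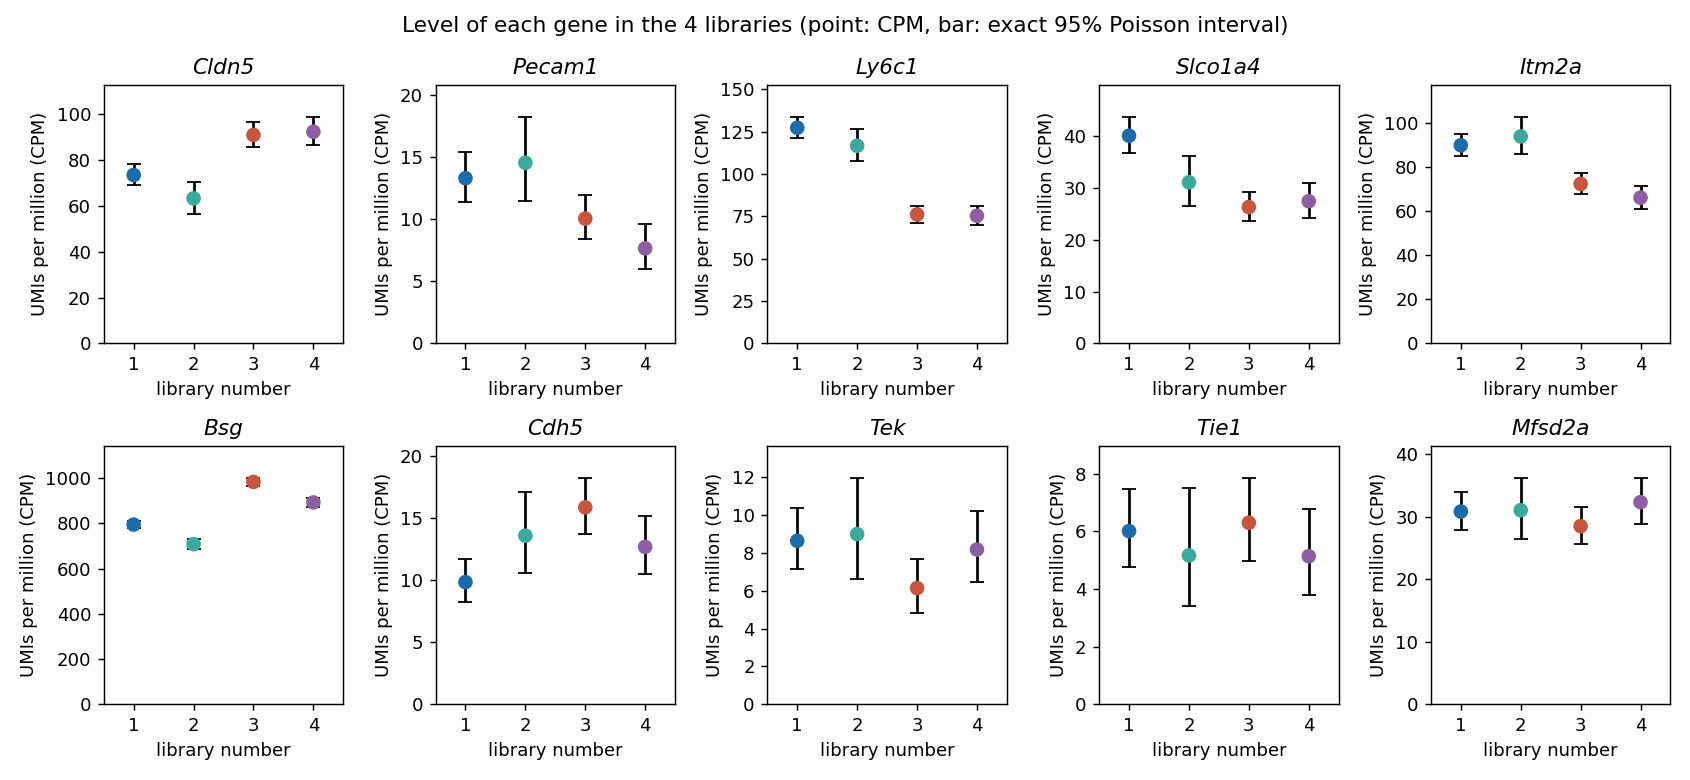
Level in CPM (vertical axes from 0, a separate scale for each gene) of the 10 genes in libraries 1 to 4, with a point for the level and a bar for the exact 95% Poisson interval. Cldn5 and Bsg were higher in libraries 3 and 4 than in libraries 1 and 2, Ly6c1 and Itm2a showed the opposite order, and Mfsd2a lay between 28.5 and 32.3 CPM throughout.

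Set against each other within a library, Cldn5 counted 57.6 (53.2 to 62.3), 54.1 (47.2 to 62.0), 119 (109 to 130) and 122 (111 to 135) UMIs per 100 Ly6c1 UMIs in libraries 1 to 4. This ratio does not depend on the total counts of the library, and its intervals left a wide gap between libraries 1 and 2 and libraries 3 and 4. Cldn5 per 100 Slco1a4 UMIs showed the same pairing, with 183, 204, 346 and 337. Per 100 Pecam1 UMIs, Cldn5 counted 551, 434, 903 and 1204. Against Cdh5 the pairing was absent, with 745, 465, 572 and 726 Cldn5 UMIs per 100 Cdh5 UMIs. Over all spots of a library Bsg and Cldn5 had nearly the same proportion, with 1083, 1120, 1082 and 968 Bsg UMIs per 100 Cldn5 UMIs. Between regions it was far from even. In library 4 it was 519 (430 to 632) in the Fmod region and 3750 (2215 to 6907) in the Adamts19 region, the latter on 14 Cldn5 UMIs.

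The share of spots with at least 1 UMI gives the spread of each gene over the tissue. For Cldn5 it was 36.2% in library 1, 29.7% in library 2, 42.2% in library 3 and 44.9% in library 4. For Ly6c1 the shares were 49.0, 46.9, 40.9 and 44.0%, and for Itm2a 43.7, 41.5, 39.3 and 40.4%. Deeper spots show more genes, so each spot was also thinned to 2000 UMIs, leaving out 233, 89, 42 and 20 shallower spots. The thinned shares were 14.2, 11.2, 16.3 and 17.6% for Cldn5 and 20.8, 19.3, 12.4 and 13.4% for Ly6c1, so both genes kept the order of their levels between the library pairs. Slco1a4 was found in 17.8 to 23.6% of spots, Mfsd2a in 18.9 to 24.7%, Pecam1 in 7.53 to 9.65%, Cdh5 in 7.10 to 12.1%, Tek in 5.17 to 7.53% and Tie1 in 3.50 to 5.56%. No cell type free of these genes could be singled out in spots, so the share that free RNA would give was not measured.

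Bsg was not confined to a subset of the tissue. It was found in 90.5, 87.0, 97.4 and 97.5% of spots, and still in 78.4, 74.8, 80.6 and 76.9% after thinning. Across spots its correlation with the summed counts of the narrower genes was 0.185, 0.225, 0.177 and 0.264 (Pearson's r of depth-corrected residuals), whereas Ly6c1 gave 0.349, 0.345, 0.385 and 0.323 and Itm2a 0.364, 0.319, 0.360 and 0.357. Pecam1, with 0.133, 0.143, 0.110 and 0.167, and Mfsd2a, with 0.142, 0.116, 0.017 and 0.086, were below Bsg in every library. The sparsely counted Cdh5 ranged from 0.0869 to 0.261, Tek from 0.0900 to 0.222 and Tie1 from 0.103 to 0.256, so that the correlation does not set Bsg apart from the rarer genes. These correlations run over the 1662, 715, 1296 and 943 spots of the libraries, whose spots share a library and neighbour each other, and are given as a description. Excluding Bsg and Itm2a, none of the other 8 genes was detected in 29.0, 33.4, 25.2 and 24.2% of spots, and at least 4 of the 8 were detected in 9.57, 7.97, 8.95 and 10.8%. Depth moved with this count, since the spots with none had a median of 2583 to 5965 UMIs and those with at least 4 a median of 9083 to 12131.5 UMIs; its part in the result was not tested.

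Where the genes lay in the tissue was described by comparing each region with the rest of its own library, for regions of at least 30 spots. In its highest region a gene was more than 2-fold above the rest in 4, 3, 9 and 7 of the 10 genes in libraries 1 to 4, against 17.6, 14.1, 36.6 and 37.0% of all genes. Over the 4 libraries this made 23 of 40 pairs of gene and library, against 26.7% of all such pairs. The median of these highest ratios over the 10 genes was 1.81, 1.76, 3.12 and 3.18, and over all genes 1.43, 1.42, 1.74 and 1.74. The highest region was Bpifb9b for all 10 genes in library 1 and for 8 in library 2. It was Fmod for 7 genes in each of libraries 3 and 4, and Ces1a for 2 in each.

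In the Fmod region, led by Fmod, Slc22a6, Ogn and Ptgds, the endothelial genes were high together. Of the 10 genes, 7 in library 3 and 6 in library 4 were more than 2-fold above the rest of the library, against 8.0 and 5.94% of all genes. Cdh5 had 60.5 CPM in the region and 10.2 outside it in library 3, a ratio of 5.95 (4.44 to 7.94), and 39.7 against 10.2 in library 4, a ratio of 3.90. Itm2a had 231 against 52.2 CPM in library 3, a ratio of 4.42, and a ratio of 3.23 in library 4. Pecam1 was 3.77 times the rest (2.53 to 5.53) in library 3 and 3.55 times in library 4, and Slco1a4 3.03 and 3.38 times.

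Both Tie receptors were also higher there, with ratios of 3.21 (1.88 to 5.30) and 3.14 (1.45 to 6.26) for Tie1 in libraries 3 and 4. Tek gave 2.74 (1.56 to 4.63) and 1.97 (0.969 to 3.68), the second on 12 UMIs in the region. Ly6c1 was 2.03 and 2.19 times the rest, and Cldn5 less so, at 1.77 and 1.86 times. Bsg at 0.874 and 0.926 and Mfsd2a at 0.796 and 1.08 were not among the genes that were high there. The median ratio over the 10 genes was 2.89 and 2.66, where all genes gave 0.903 and 0.909. Markers of other cells moved with the region: the summed leptomeningeal genes, of which Fmod itself is a member, were 6.77 and 4.29 times the rest, the summed pericyte and smooth muscle genes 3.50 and 2.87 times, and the summed haemoglobin and red cell genes 2.86 and 3.81 times. Their part in the result was not tested.

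In the Ces1a region, led by Ces1a, Mmp12, Bpifb6 and Gpx6, Cldn5 was well above the rest of its library in libraries 3 and 4. Bsg and Itm2a were higher too, as were Ly6c1 in library 3 and Cdh5 and Tek in library 4. Cldn5 had 265 CPM in the region and 60.1 outside it in library 3, a ratio of 4.40 (3.91 to 4.96), and 259 against 64.9 in library 4, a ratio of 3.99 (3.47 to 4.57). Bsg had 1714 against 854 CPM in library 3, a ratio of 2.01 (1.93 to 2.09), and 1478 against 796 in library 4, a ratio of 1.86 (1.76 to 1.95). In each library 2 of the 10 genes passed 2-fold, Cldn5 and Bsg in library 3 and Cldn5 and Cdh5 in library 4, against 12.8 and 13.3% of all genes. Pecam1 at 0.886 and 1.08, Slco1a4 at 0.877 and 0.854 and Mfsd2a at 1.01 and 0.965 were close to the rest of the library. Ly6c1 was 1.40 (1.19 to 1.64) and 1.13 times the rest, and Itm2a 1.47 (1.25 to 1.73) and 1.57 (1.28 to 1.91) times. Cdh5 was 1.17 and 2.39 (1.56 to 3.59) times the rest and Tek 1.15 and 1.97 (1.11 to 3.35) times, so both were clear of it in library 4 only. In all, 4 of 10 genes in library 3 and 5 in library 4 had an interval above 1, against 22.2 and 20.3% of all genes.

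Spots rich in Cldn5 were gathered there. Of the 132 spots of library 3 with at least 3 Cldn5 UMIs, 80 (60.6%) lay in the Ces1a region, and of the 110 of library 4, 56 (50.9%). The region held 15.1 and 15.9% of all spots of these libraries. In libraries 1 and 2 such spots lay mostly in the Bpifb9b region, 46 of 81 (56.8%) and 15 of 24 (62.5%). That region held 22.3 and 20.1% of their spots. Marker sums that were high in the Ces1a region were those of the nasal mucosa and its glands, at 23.4 and 30.4 times the rest of libraries 3 and 4. Those of phagocytes and monocytes were at 9.23 and 12.4 times, of the olfactory ensheathing glia at 3.59 and 4.08 times, and of red cells at 4.01 and 2.59 times. The sums of the leptomeninges, at 2.74 and 4.31 times, of lymphatic endothelium, at 3.16 and 2.78 times, of microglia, at 3.01 and 3.06 times, of olfactory sensory neurons, at 3.05 and 3.02 times, and of pericytes and smooth muscle, at 2.09 and 1.997 times, were higher as well. Their part in the Cldn5 and Bsg levels was not tested. At a finer resolution, added after seeing the data, this area divided into an Mmp12 region of 138 and 86 spots and a Ces1a region of 39 and 46 spots. Cldn5 was 4.30 (3.79 to 4.86) and 4.10 (3.53 to 4.74) times the rest in the first and 2.71 (2.10 to 3.45) and 1.94 (1.42 to 2.6) times in the other. Pecam1, on 5 to 10 UMIs, was 0.702 (0.328 to 1.34) and 0.706 (0.222 to 1.73) times the rest in the Mmp12 region and 1.68 (0.536 to 4.03) and 2.47 (0.778 to 6.06) times in the finer Ces1a region, none of which was clear of even.

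The Ces1a region had 196 and 150 spots in libraries 3 and 4, 3 in library 1 and 0 in library 2. With its spots left out, a choice made after seeing the data, the Cldn5 level of library 4 was 1.03 times that of library 2, where all spots gave 1.46, and for Bsg library 3 was 1.21 times library 2 in place of 1.39. Since the region is high in Cldn5 and lies almost wholly in libraries 3 and 4, its removal had to lower them. With the Fmod and Bpifb9b regions left out as well, the Cldn5 ratio was 1.37. Cldn5 levels outside the Ces1a region were 60.1 and 64.9 CPM in libraries 3 and 4. All spots of libraries 1 and 2 gave 73.4 and 63.2 CPM, but these keep their own highest region, Bpifb9b. Outside that region libraries 1 and 2 had 54.9 and 42.6 CPM.

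**Figure D2:**
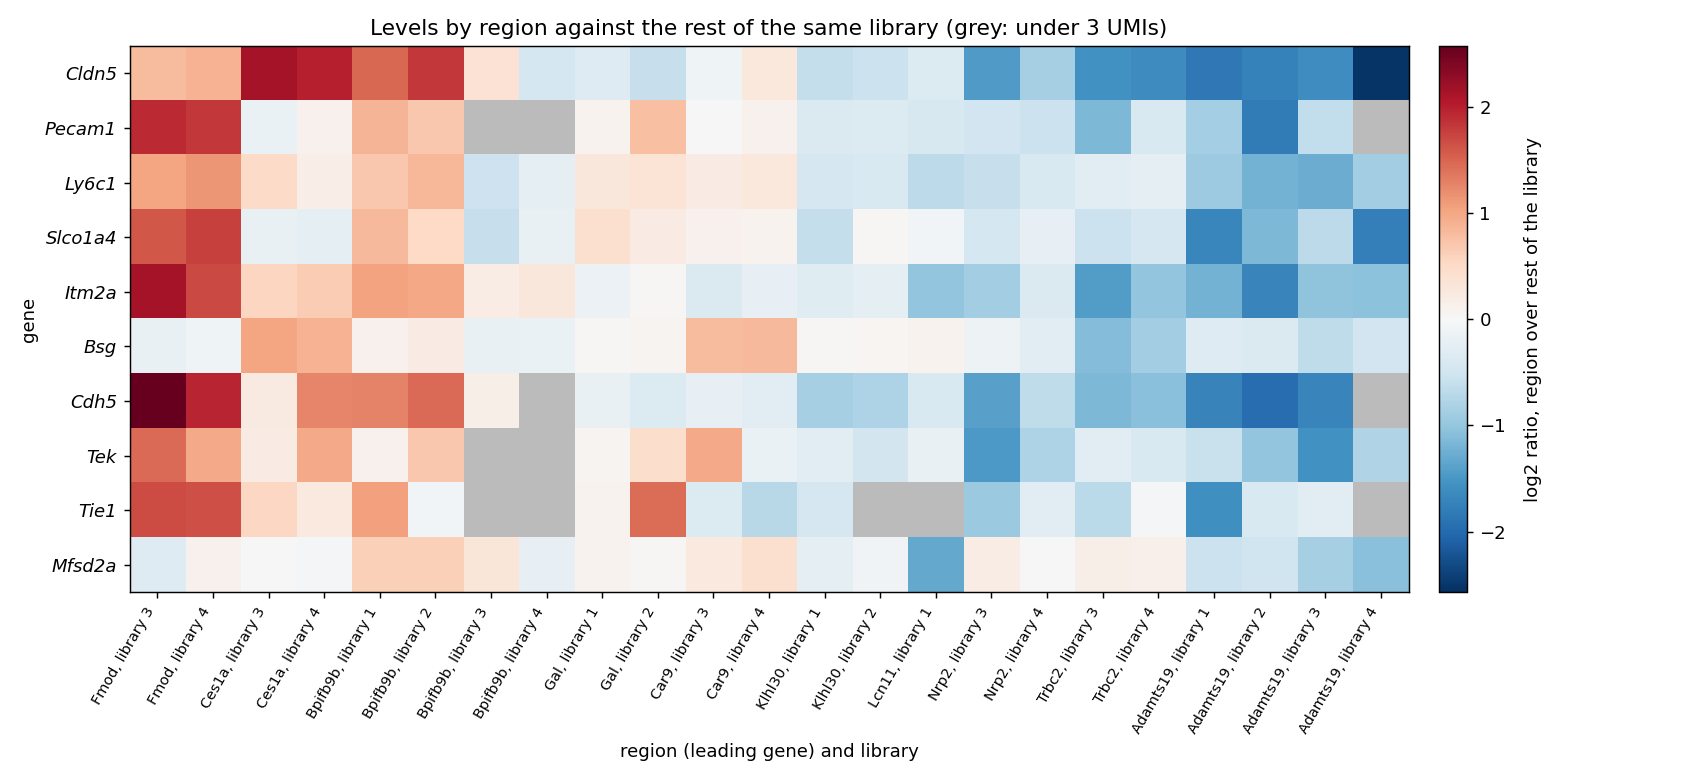
Colour shows the log2 ratio of each gene's level in a region to the rest of the same library, red for higher and blue for lower, with grey where the region had under 3 UMIs; rows are the 10 genes and columns the regions with at least 30 spots, by leading gene and library. The Fmod columns are red for most genes, and the Adamts19 columns are blue in nearly every row. In the Ces1a columns the genes with an interval above 1 are Cldn5, Bsg and Itm2a in libraries 3 and 4, Ly6c1 in library 3, and Cdh5 and Tek in library 4.

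In the Bpifb9b region, led by Bpifb9b, Gfy, Umodl1 and Stoml3, 4 of 10 genes in library 1 and 2 of 10 in library 2 were more than 2-fold above the rest, against 7.12 and 4.86% of all genes. Cldn5 had 153 against 54.9 CPM in library 1, a ratio of 2.78 (2.44 to 3.17), and 149.7 against 42.6 in library 2, a ratio of 3.51 (2.81 to 4.39). Cdh5 was 2.41 and 2.74 times the rest, Itm2a 2.04 and 1.999 times and Ly6c1 1.61 and 1.81 times. Tie1 was 2.07 times the rest (1.25 to 3.37) in library 1 and 0.958 times (0.283 to 2.59) in library 2 on 5 UMIs. Slco1a4 was 1.79 times the rest in library 1 and 1.43 times (0.976 to 2.05) in library 2, and Mfsd2a 1.54 and 1.52 times. Both were close to the rest in the Ces1a region, which was measured in libraries 3 and 4 only. In the Bpifb9b region of libraries 3 and 4, Slco1a4 had 17.6 and 24.0 CPM, on 3 and 6 UMIs. Its levels over all their spots were 26.2 and 27.4 CPM. In libraries 3 and 4, where the region had 38 and 41 spots, none of the 7 and 6 genes counted well enough passed 2-fold, against 6.25 and 8.82% of all genes. Leptomeningeal marker sums were 3.83 and 3.78 times the rest in libraries 1 and 2, those of ensheathing glia 3.15 and 2.90 times and those of olfactory sensory neurons 7.53 and 5.55 times. The sums of the nasal mucosa were 2.11 and 12.98 times the rest, of red cells 3.64 and 2.93 times and of pericytes and smooth muscle 2.41 and 2.74 times. Their part was not tested.

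The Adamts19 region, led by Adamts19, Vipr2 and Grm4, was low for most of the genes. The ratio to the rest of the library had an interval below 1 for 9, 7 and 7 of the 10 genes in libraries 1 to 3 and for 6 of the 7 counted well enough in library 4, against 15.2, 11.4, 15.9 and 12.3% of all genes. Cldn5 had 22.6, 22.6, 32.2 and 17.3 CPM there, ratios of 0.278, 0.301, 0.330 and 0.175 to the rest. Cdh5 was at 0.305, 0.256 and 0.306 times the rest in libraries 1 to 3, and had 0 UMIs in the 139 spots of library 4, with a ratio interval from 0 to 0.334. Bsg, at 0.795, 0.775, 0.638 and 0.710 times the rest, was lower by less. These spots were shallow, with a median of 2348, 2919.5, 4809 and 5256 UMIs. The granule cell marker sum was 2.15, 1.95, 2.75 and 2.59 times the rest in libraries 1 to 4. Whether depth or cell content had a part in this was not tested.

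As the region with the most spots over the 4 libraries together, Adamts19 also allowed the libraries to be compared within 1 cluster. It was not shown to hold like tissue in each. Median UMIs per spot were 2348 in library 1 and 5256 in library 4, and the leptomeningeal marker sum was 36.5, 41.9, 155 and 104 CPM. At the finer resolution, regions sharing leading genes with it differed by library. Lgr6 had 429, 230, 56 and 20 spots and Necab2 14, 22, 145 and 105. Of 7 genes counted well enough, Ly6c1 and Tek were more than 2-fold apart between the highest and lowest library, against 17.9% of all genes. Ly6c1 had 71.3, 57.8, 33.7 and 42.1 CPM, on 129, 69, 45 and 34 UMIs. Library 1 was 2.11 times library 3 (1.49 to 3.03). Libraries 1 and 2 had the higher Ly6c1 levels, as over all spots, but no interval was computed between libraries 2 and 4. Cldn5 had no such pairing, and its ratio of 1.86 (0.999 to 3.68) rested on 43 UMIs in library 3 and 14 in library 4. Tek, with 11, 6, 3 and 4 UMIs, gave a ratio of 2.70 with an interval from 0.713 to 15.1. Bsg at 1.13 and Itm2a at 1.26 were near even. The count rested on single libraries: without library 1 or without library 3 no gene passed 2-fold, and without library 2 only Ly6c1 did. In the Bpifb9b region Ly6c1 had 184, 183, 52.8 and 64.1 CPM, a ratio of 3.49 (1.82 to 7.68), and Cldn5 153, 149.7, 117 and 68.1 CPM, a ratio of 2.24 (1.38 to 3.89). There both genes were highest in libraries 1 and 2, and the values of library 3 rest on 9 and 20 UMIs.

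Cldn5 per 100 Ly6c1 UMIs differed between regions and, in some of them, between libraries. It was 263 (222 to 313) and 310 (250 to 387) in the Ces1a region of libraries 3 and 4, and 107 and 107 in their Fmod region. In the Trbc2 region it was 56.8 and 54.7, a value like the 52.2 and 49.7 of the Klhl30 region in libraries 1 and 2. Gal spots had 42.5 and 33.0, and Bpifb9b spots 82.9, 82.0, 222 and 106 in libraries 1 to 4, with wide intervals in library 3 (96.7 to 554) and library 4 (50.5 to 225). In the Adamts19 region the 4 libraries gave 31.8, 39.1, 95.6 and 41.2, with library 3 highest. Its interval (61.4 to 148) lay above that of library 1 (21.8 to 45.5). It overlapped those of library 2 (24.1 to 61.9) and library 4 (20.4 to 78.8), the last on 14 Cldn5 UMIs.

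**Figure D3:**
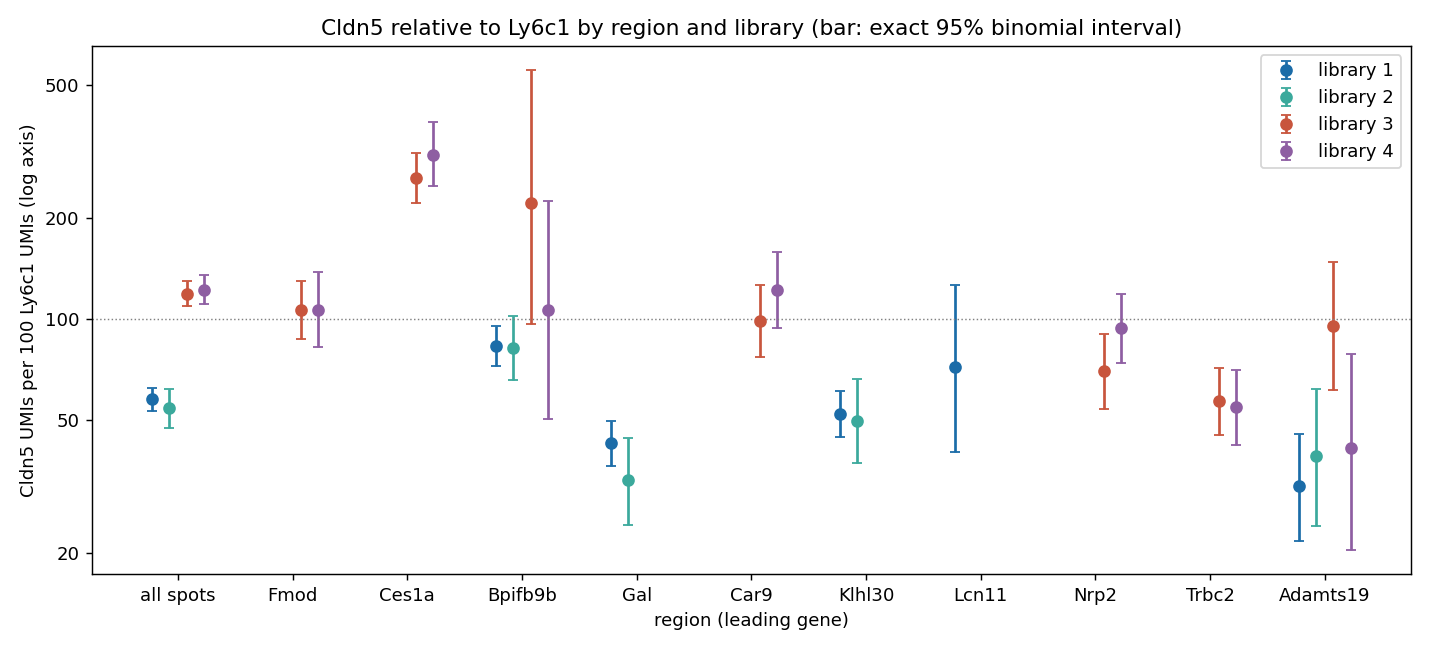
Cldn5 UMIs per 100 Ly6c1 UMIs (vertical log axis; the dotted line marks 100) over all spots and in each region with at least 30 spots of a library, in the colour of the library, with exact 95% binomial intervals. The Ces1a region of libraries 3 and 4 lies highest among the well-counted points, at 263 and 310, and the all-spot values separate libraries 1 and 2 from libraries 3 and 4.

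Bsg had a second high region. In the Car9 region of libraries 3 and 4, led by Car9, Lcn2, C3 and Gfap, it had 1579 against 897 CPM, a ratio of 1.76 (1.68 to 1.84), and 1450 against 811 CPM, a ratio of 1.79 (1.70 to 1.88). Cldn5 there was 0.928 (0.769 to 1.11) and 1.21 (0.997 to 1.46) times the rest. In the Trbc2 region Bsg was lowest, at 0.463 and 0.541 times the rest, and Cldn5 was at 0.342 and 0.327 times. Ly6c1 departed less from the rest in that region, at 0.825 and 0.858, and Mfsd2a, at 1.12 and 1.09, was even.

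Whether the genes lay in the same spots was described by splitting the spots of each library by the presence of a Cldn5 UMI. Of the 9 other genes in 4 libraries, 35 of 36 values were higher in spots with Cldn5, and 28 had an interval above 1. The background of such intervals was 9.94, 6.21, 15.6 and 13.4% of all genes in libraries 1 to 4. Ly6c1 had 161 CPM with and 101 without Cldn5 in library 1, a ratio of 1.59 (1.44 to 1.75), and ratios of 1.67, 1.81 and 1.56 in the other libraries. Slco1a4 reached 40.1 against 15.1 CPM in library 4, a ratio of 2.66 (2.02 to 3.54), after 1.74, 1.28 and 1.92. Cdh5 was 1.91, 2.17, 1.72 and 2.54 times as high, Tek 1.28, 2.27, 1.80 and 1.95 times and Tie1 1.32, 1.16, 2.65 and 1.95 times. Bsg was higher by less, at 1.10, 1.12, 1.28 and 1.42 times, and Mfsd2a at 1.18, 1.86, 1.14 and 1.31 times. The exception was Pecam1 in library 2, at 0.926 (0.557 to 1.51).

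The spots with Cldn5 were also deeper, with a median of 9749 against 6314 UMIs in library 1, 8733 against 6194 in library 2, 10547 against 7873 in library 3 and 10716 against 8914.5 in library 4. By the same split the leptomeningeal marker sum was 2.50, 2.45, 2.46 and 2.01 times as high, that of pericytes and smooth muscle 1.65, 1.73, 1.86 and 1.79 times and that of ensheathing glia 1.81, 1.79, 2.18 and 2.07 times. The phagocyte and monocyte sum was 1.06, 1.18, 2.57 and 3.79 times as high, and that of the nasal mucosa and its glands 1.45, 2.96, 4.53 and 4.35 times, both largest in the libraries that hold the Ces1a region. Red cell genes were 1.87, 1.06, 2.16 and 1.45 times as high. Granule cell markers were lower, at 0.777, 0.782, 0.728 and 0.746 times. In spots thinned to 2000 UMIs before the split, 35 of 36 values were again higher, with a median ratio of 1.70 in place of 1.59. Without the 5% of spots highest in leptomeningeal markers it was also 35 of 36, with a median of 1.55. The part of the other cells was not tested. With the number of Cldn5 UMIs in a spot the summed level of the 7 other genes (without Bsg and Itm2a) was higher at each step, from 191 CPM at 0 through 245 and 338 to 427 CPM at 3 or more in library 1. The same steps gave 180.5, 252, 314 and 482 CPM in library 2, 128, 175, 198 and 308 in library 3, and 125, 166, 230.1 and 289.9 in library 4. The sum was unweighted, and Ly6c1 had the most UMIs in it, 3979 against 1284 for Slco1a4, the next.

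**Figure D4:**
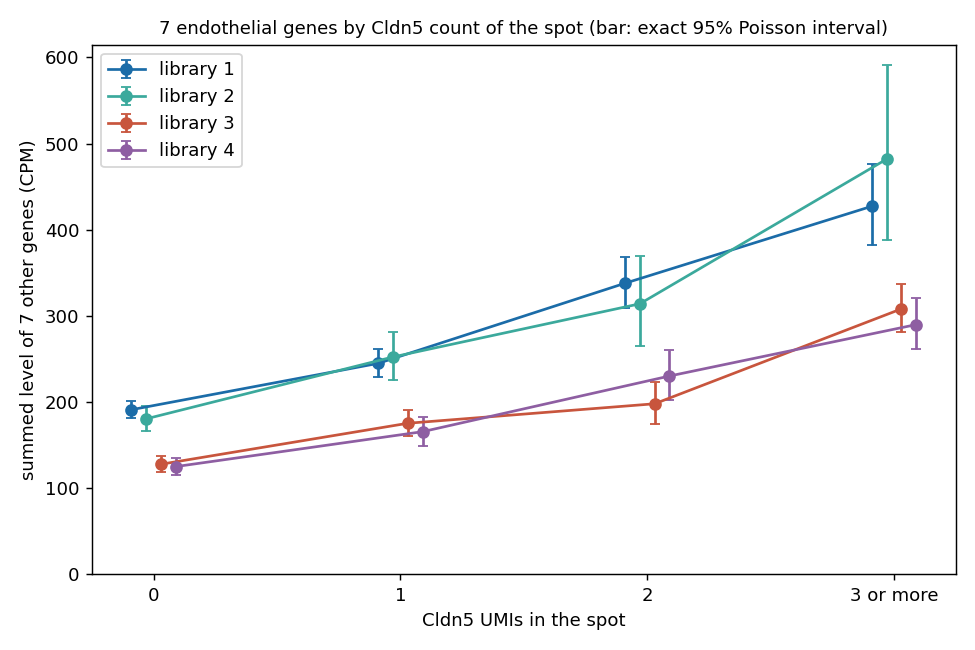
Summed level in CPM of Pecam1, Ly6c1, Slco1a4, Cdh5, Tek, Tie1 and Mfsd2a (vertical axis from 0) in spots with 0, 1, 2 or at least 3 Cldn5 UMIs, for libraries 1 to 4 in separate colours, with exact 95% Poisson intervals; lines join the points of a library. All 4 lines climb, from 125 to 191 CPM at 0 to 289.9 to 482 CPM at 3 or more, and libraries 1 and 2 lie above libraries 3 and 4 at every step. The sum is unweighted, and Ly6c1, itself higher in libraries 1 and 2, has the most UMIs in it.

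The genes whose counts were most like those of the 8 narrower endothelial genes across spots were sought among 9508 genes, by the lowest of the 4 within-library correlations. The 8 were summed unweighted, and Ly6c1 and Cldn5 had the most UMIs, 3979 and 3323. The highest were Selenop with 0.465, Apod with 0.437, Apoe with 0.402, Ptn with 0.399, Igfbp7 with 0.393, Fabp7 with 0.388, Dcn with 0.379, Ifitm3 with 0.378 and Ptgds with 0.370. The median gene had −0.0563 and the 99th percentile was 0.213. Apod and Fabp7 are on the list of ensheathing glia markers and Dcn on that of the leptomeninges. The nearest gene of the barrier lists was the glucose transporter Slc2a1, at rank 14 with 0.340, and Itm2a was at rank 16 with 0.319. Marker sums gave correlations of the same size, from 0.459 to 0.505 for ensheathing glia, 0.391 to 0.522 for pericytes and smooth muscle and 0.411 to 0.481 for the leptomeninges, and −0.312 to −0.253 for granule cells.

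Taken singly, a step added after seeing the data, Cldn5 and Ly6c1 had different neighbours. The genes most like Cldn5 were Apoe, Fabp7, Apod, Igfbp7 and Dcn, with Ly6c1 at rank 66. Those most like Ly6c1 were Slc2a1, Selenop, Itm2a, Pltp and Cldn5. The genes most like Itm2a included Vtn, Apod, Selenop and Ptgds, and those most like Bsg were Selenop, Sparcl1, Apoe, Fabp7 and Igfbp5. All these points share library, depth and neighbouring tissue.

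The wider pathway was given by 12 lists with 127 genes, of which 119 were counted well enough. Of these 37 (31.1%) were more than 2-fold apart between the highest and the lowest library, against the background of 19.6%. The highest library was 3 for 20 of the 37, 4 for 14, 1 for 2 and 2 for 1. The median ratio was 1.68. With at least 200 UMIs required, 24 of 96 genes passed, against 10.9% of all genes. Libraries 3 and 4 also held more of the leptomeningeal marker genes, with a sum of 960 and 747 CPM against 209 and 292 and 9 of the 10 markers past 2-fold, and of the phagocyte and monocyte genes, with 1128 and 910 CPM against 203 and 196 and 5 of 5 counted markers past 2-fold. The pericyte and smooth muscle sum was even, at 293, 290, 273 and 267 CPM, although 8 of its 13 genes passed 2-fold in either direction. The part of these cells in the pathway values was not tested.

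Tight junction partners passed 2-fold in 3 of 11 genes, with a median ratio of 1.63. Jam2, a junctional adhesion molecule, had the library order of Ly6c1 with 124, 115, 63.1 and 58.1 CPM, a ratio of 2.13. Across spots, however, the correlation of Jam2 with the endothelial sum was −0.0197, −0.0342, 0.0162 and 0.0496. Cldn11, the claudin of oligodendrocyte myelin, was opposite in level with 37.4, 39.4, 98.5 and 90.3 CPM. Barrier transporters were among the most even, with 2 of 15 past 2-fold and a median of 1.36. Slc2a1, the glucose transporter GLUT1, had 137, 129.6, 117 and 115 CPM, a ratio of 1.2, and Slc3a2, the heavy chain of amino acid exchangers, a ratio of 1.02. The transferrin receptor gene Tfrc had 32.0, 37.7, 70.5 and 62.5 CPM, and Slc16a1, the monocarboxylate transporter carried by basigin, 32.0, 37.7, 64.5 and 55.7 CPM, a ratio of 2.01. The correlation with the endothelial sum was −0.0604, −0.0785, −0.0245 and 0.00436 for Tfrc and 0.203, 0.130, 0.216 and 0.197 for Slc16a1.

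In the angiopoietin and Tie pathway 2 of 6 genes passed 2-fold. Angpt2, the ligand that destabilises vessels through Tie2, had 1.58, 1.34, 3.99 and 4.41 CPM, a ratio of 3.29 (1.46 to 8.67), while the phosphatase gene Ptprb, at 1.33, and Foxo1, the factor held in check by Tie2, at 1.09, were more even. Svep1 lay just under the threshold at 1.996. Of 16 endothelial surface genes 5 passed, with S1pr1 at 1.16 and Ramp2 at 1.38 below it, Mcam at 5.71, 9.38, 20.9 and 16.8 CPM and Vwf, the von Willebrand factor gene, at 6.99, 9.76, 23.7 and 20.2 CPM. Endothelial transcription factors passed in 1 of 11, with Epas1 at 1.13, Foxq1 at 1.86 and the shear-responsive Klf2 at 38.3, 43.6, 28.9 and 25.2 CPM. VEGF receptors passed in 1 of 4, Nrp2 with a ratio of 11.9, and Flt1 was at 1.55. Nrp2 is also the leading gene of the Nrp2 region, which had 21, 10, 281 and 225 spots in libraries 1 to 4. Across spots its correlation with the endothelial sum was 0.0386, 0.0424, −0.000656 and 0.000979.

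Wnt barrier induction genes passed in 2 of 13, the ligand gene Wnt7b with 10.7, 12.1, 33.8 and 35.8 CPM and the Wnt target Apcdd1 with 32.8, 31.8, 73.6 and 68.8 CPM, while Ctnnb1, beta-catenin, had a ratio of 1.14. Of 6 transcytosis and fenestration genes 1 passed, Cavin1, a caveola coat gene, with 15.8, 14.4, 37.0 and 26.2 CPM. Plvap, the diaphragm protein of fenestrated vessels that barrier endothelium lacks, was counted in every library, with 46.8, 43.3, 29.1 and 25.6 CPM, a ratio of 1.83 (1.58 to 2.13). Its order over the libraries was that of Ly6c1, but across spots its correlation with the endothelial sum was 0.0157, −0.0364, −0.0244 and 0.00666. Cavin2 lay under the threshold at 1.96. Plpp3 was more even at 1.29.

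The lists with the widest spread were those of activation, of arterial and venous identity and of the basement membrane. Activation genes passed in 6 of 7, with a median ratio of 4.08: the leukocyte adhesion gene Icam1 had 2.56, 4.02, 17.2 and 13.01 CPM, Apln, the apelin ligand, 15.03, 14.9, 61.0 and 54.0 CPM, and Lrg1 0.526, 1.149, 6.30 and 3.04 CPM, a ratio of 11.98 (5.55 to 30.8). All 3 were higher in libraries 3 and 4. Ackr1, a chemokine receptor of venules, was even at 1.22, and Sele was at 0 UMIs in every library. Apln is also among the leading genes of the Car9 region, which only libraries 3 and 4 hold. Correlations with the endothelial sum across spots were −0.00743, −0.0532, 0.0280 and −0.0102 for Apln and −0.0745, −0.0398, 0.0240 and −0.0371 for Ackr1. Of 9 arterial and venous genes 8 passed. Gja4, an arterial connexin, had 6.69, 5.36, 2.15 and 4.30 CPM and Sema3g 3.68, 6.13, 1.99 and 2.20 CPM. Both had their lower levels in libraries 3 and 4. The Gja4 levels of libraries 2 and 4 were close, and no interval is given for their ratio. The other 6 that passed were highest in library 3 or 4, and the summed list had 99.7, 101, 160.2 and 174 CPM. The venous factor Nr2f2 had a ratio of 2.21 and was among them, and Hey1 was at 1.37. Basement membrane genes passed in 4 of 9, Hspg2, the perlecan gene, with 7.89, 7.27, 28.2 and 24.6 CPM and Lama4 with a ratio of 3.39, whereas Col4a1, a chain of collagen IV, was just under the threshold and Sparc, a matrix-binding protein, below it with 1.88.

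Among relatives and partners of the 10 genes, 2 of 12 passed. Slc16a3, another monocarboxylate transporter carried by basigin, had 0.752, 0.574, 15 and 12.3 CPM, a ratio of 26.1 with an interval from 8.80 to 128, the library 2 value resting on 3 UMIs. Slc16a7 had a ratio of 1.76. Ppia, the cyclophilin A that binds basigin, had a ratio of 1.10, and Itm2b, the relative of Itm2a, one of 1.07.

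**Figure D5:**
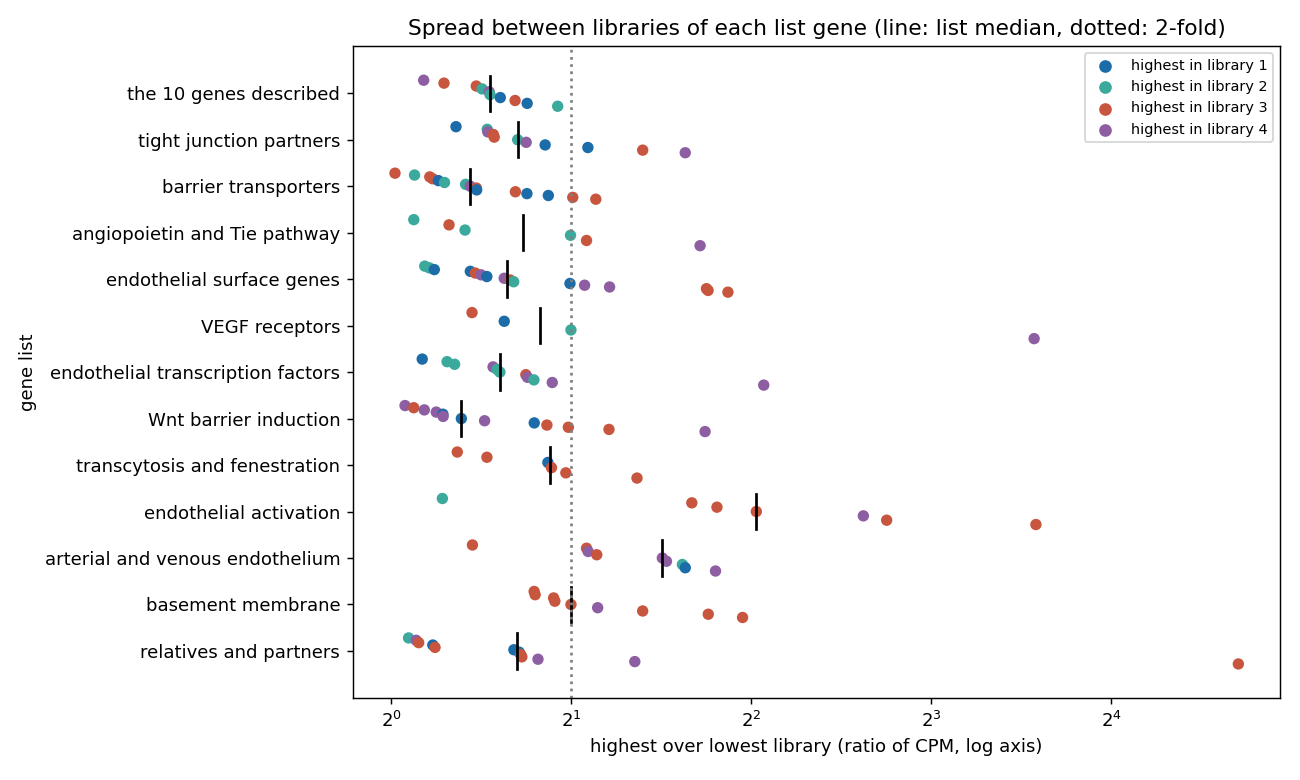
Highest over lowest library, as a ratio of CPM (horizontal axis on a log2 scale, dotted line at 2-fold) for the 10 genes and for each counted gene of the 12 lists, with the colour giving the highest library and the vertical bar the list median. All 10 endothelial and barrier genes lie left of the dotted line, where 10.4% of genes of similar abundance lie right of it. The intervals of Pecam1, Cdh5 and Tek reach past the line, to 2.66, 2.03 and 2.13. The activation list has 6 of 7 genes to the right of it and a median of 4.08, against 19.6% of all genes.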

How the data were processed

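The labels describe Visium spatial libraries from fresh-frozen olfactory bulb. The authors deposited whole UMI counts of all libraries in 1 matrix, and per the file headers it was written by Space Ranger 1.3.1. Per the submitters' processing notes the build was GRCm39. Which annotation, read filters and depth scaling were applied is not stated in the sources used here. Of 32285 gene identifiers 32158 were found in the reference names.

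Spots were assigned to libraries by the barcode number, which matches no sample label. No library was assigned to a mouse, so the comparison of control with mutant was not run, and no mean, SD or p-value was computed. Spots with at least 500 UMIs were kept, 4616 of 4713. The libraries had 13304973, 5223890, 12533691 and 9533952 UMIs, and 3 UMIs correspond to 0.225, 0.574, 0.239 and 0.315 CPM.

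Genes compared between libraries had 20 or more UMIs over all libraries and 3 or more in each. Regions came from Leiden clustering (scanpy 1.11.5, 2000 variable genes, 30 components, 15 neighbours, resolution 0.8) without list, mitochondrial, ribosomal protein and haemoglobin genes. Correlations used analytic Pearson residuals (theta 100) within each library. Intervals were computed with scipy 1.17.1. The 10 genes, the lists and the tests were chosen with earlier results of these data known. Named genes are the 10, from each list those with the most UMIs and those with the widest ratio among genes with at least 100 UMIs, and the 10 genes most like them across spots, of which 1 is not reported here; leading genes of regions, Ly6c2, Slco1a5, Slco1a6, Sele and the neighbours of single genes were named besides. The calculations were tested on simulated data. Promoter windows are RefSeq sequence on GRCm38.p6. Alternatives covered the spot minimum, scaling, gene filters, region resolution, thinning and leaving out each library.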

Additional observations from a re-analysis of the deposited data

Results flagged for a closer look

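The 97 spots with under 500 UMIs, which entered no comparison, held 15 UMIs of the 10 genes. Of these 13 were Bsg and 2 were Slco1a4, and 13 lay in the 85 such spots of library 1, 1 each in libraries 2 and 3 and 0 in library 4. These spots held 0.0680% of all UMIs. There are no control spots off the tissue to set this against, and a count of 0 would allow 3 UMIs.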

How the results depend on the processing

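No gene of the 10 passed 2-fold between libraries, except that 1 did with regions weighted alike (Cdh5, 2.07) and 1 without the Fmod, Ces1a and Bpifb9b regions (Pecam1, 2.18), the latter chosen after seeing the data. Over 120 alternatives of the 10 ratios, 108 stayed within the counting interval and 12 moved further, with a range of 1.02 to 2.18. Of these 0 reversed, but with a library left out the ratio was again highest over lowest and could not reverse. Leaving out a library that was neither the highest nor the lowest left the ratio as it was. Part of the 108 was therefore fixed in advance. Of the pathway genes 37 of 119 passed, 24 of 96 with at least 200 UMIs, 30 to 33 with a library left out, 39 under other scalings, 43 without the spots highest in leptomeningeal markers and 47 with regions weighted alike. Within the Adamts19 region 2 genes passed, 1 (Tie1) at resolution 0.4, and 0 to 2 with a library left out; at resolution 1.2 no region had 30 spots in every library. Pairs of gene and library above 2-fold in the highest region numbered 23, and 14 to 20 with a library left out, 14 of 30 without library 3. The median share of spots with a UMI was 19.8%, and 6.23% after thinning. Scaling without mitochondrial, ribosomal protein or haemoglobin genes shifted the median gene by at most 0.04 log2 units. No paired analysis was possible because the library numbers match no sample and each group is 1 mouse. Depth limits Tek and Tie1 most.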
